A study of Homo sapiens with 6 samples.

Results

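The 54 genes described here encode the machinery that licenses, starts and carries out DNA replication, together with the enzymes that supply its nucleotides and the factors that package the new DNA. They were taken by name, as probe sets annotated to a single one of these genes, and each gene is given by its probe set of highest mean over the 6 arrays. All 54 were measured, among 19775 genes with a probe set of their own. The cells were MOLM-14, an established acute myeloid leukaemia line with an MLL-AF9 rearrangement. Wells of a 12-well plate were kept for 24 h either in the solvent DMSO, in 3 samples, or in 10 nM CA, in 3 samples. CA is cortistatin A, a natural product that blocks the kinases CDK8 and CDK19 of Mediator, a complex between transcription factors and RNA polymerase II. All samples are 1 cell line at 1 dose and 1 time, and the labels do not say whether the wells of a group came from separate cultures, so that the p-values reflect the spread among these samples alone, which may be technical. The labels name both a column kit and TRIzol for the isolation of RNA, without saying which sample had which, so this could not be examined as a batch.

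DNA replication is prepared in G1, when the origin recognition complex, CDC6 and CDT1 load the ring of MCM2 to MCM7 onto DNA. In S phase the kinase CDC7 with DBF4, helped by MCM10, turns the loaded ring into the active helicase with CDC45 and the GINS complex. Primase and DNA polymerases alpha, delta and epsilon then copy the strands, with PCNA as the sliding clamp and the RFC complex as its loader. Many of these genes are transcribed at the G1/S transition under E2F factors, and in leukaemia cells that divide steadily they are strongly expressed.

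The sequences that follow show the start of the member gene with the largest difference, of each called higher gene with E2F letters near its start, and of both genes called lower. They are RefSeq windows of GRCh38.p14, from 250 bases before to 50 bases after a transcription start, read 5′ to 3′ on the strand of the gene. Capitals mark TTCGCGC or TTGGCGC, the shorter E2F letters, and the CCAAT box, on either strand. Where a gene has several windows, the one with the most matches is shown. The windows lie at chr15:66356636-66356935 (minus strand) for TIPIN, chr17:40287629-40287928 (plus) for CDC6, chr3:127598161-127598460 (plus) for MCM2, chr14:49688165-49688464 (minus) for POLE2, chr19:4909894-4910193 (plus) for UHRF1, chr1:91500601-91500900 (plus) for CDC7 and chr17:78187003-78187302 (minus) for TK1.
TIPIN: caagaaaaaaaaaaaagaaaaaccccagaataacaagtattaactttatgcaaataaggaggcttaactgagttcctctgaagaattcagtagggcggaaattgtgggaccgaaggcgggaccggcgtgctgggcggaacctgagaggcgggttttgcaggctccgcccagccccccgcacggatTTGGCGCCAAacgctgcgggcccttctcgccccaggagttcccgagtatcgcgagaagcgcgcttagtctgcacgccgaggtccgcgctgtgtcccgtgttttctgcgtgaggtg
CDC6: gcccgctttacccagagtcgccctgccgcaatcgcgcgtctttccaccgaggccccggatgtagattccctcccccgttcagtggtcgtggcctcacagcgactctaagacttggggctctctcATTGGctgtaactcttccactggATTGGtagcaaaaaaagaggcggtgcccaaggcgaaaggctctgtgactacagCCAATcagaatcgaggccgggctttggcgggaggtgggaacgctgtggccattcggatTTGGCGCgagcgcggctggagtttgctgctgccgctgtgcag
MCM2: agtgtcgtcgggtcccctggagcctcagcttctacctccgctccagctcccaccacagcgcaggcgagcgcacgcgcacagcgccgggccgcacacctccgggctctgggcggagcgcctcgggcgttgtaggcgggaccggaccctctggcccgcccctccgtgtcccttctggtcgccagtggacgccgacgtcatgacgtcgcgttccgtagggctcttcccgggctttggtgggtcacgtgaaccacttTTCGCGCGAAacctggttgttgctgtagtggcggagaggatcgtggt
POLE2: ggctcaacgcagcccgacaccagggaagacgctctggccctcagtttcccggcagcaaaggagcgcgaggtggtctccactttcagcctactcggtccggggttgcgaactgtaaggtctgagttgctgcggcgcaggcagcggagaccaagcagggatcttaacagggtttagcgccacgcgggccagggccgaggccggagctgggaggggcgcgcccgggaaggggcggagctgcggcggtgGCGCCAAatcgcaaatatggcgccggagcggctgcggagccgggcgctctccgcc
UHRF1: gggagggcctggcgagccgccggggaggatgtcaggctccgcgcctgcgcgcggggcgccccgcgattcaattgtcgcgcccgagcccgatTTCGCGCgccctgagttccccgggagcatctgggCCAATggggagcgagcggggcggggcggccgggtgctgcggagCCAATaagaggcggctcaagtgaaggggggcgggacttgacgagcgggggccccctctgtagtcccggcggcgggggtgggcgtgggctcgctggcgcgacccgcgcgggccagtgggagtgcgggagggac
CDC7: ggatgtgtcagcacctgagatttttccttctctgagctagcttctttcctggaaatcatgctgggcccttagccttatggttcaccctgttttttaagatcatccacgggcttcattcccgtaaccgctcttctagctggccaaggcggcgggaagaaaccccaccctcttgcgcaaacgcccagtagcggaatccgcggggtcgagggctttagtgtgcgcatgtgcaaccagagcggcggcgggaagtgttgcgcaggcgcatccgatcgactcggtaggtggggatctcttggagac
TK1: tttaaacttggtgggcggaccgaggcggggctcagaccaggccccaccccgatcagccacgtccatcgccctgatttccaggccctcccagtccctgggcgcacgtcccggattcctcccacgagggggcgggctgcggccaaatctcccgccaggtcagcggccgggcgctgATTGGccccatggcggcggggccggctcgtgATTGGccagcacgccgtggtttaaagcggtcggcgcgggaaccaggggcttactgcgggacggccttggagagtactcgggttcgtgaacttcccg

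In these windows, TIPIN holds TTGGCGC on both strands, overlapping, from base -65 to -56 before the start, and MCM2 holds TTCGCGC on both strands, overlapping, from base 4 to 13 after it. CDC6 holds TTGGCGC at 9 to 15 and 3 CCAAT boxes, and POLE2 holds TTGGCGC on the opposite strand across the start, from -5 to 2. UHRF1 holds TTCGCGC at -159 to -153 and 2 CCAAT boxes. TK1 holds 2 CCAAT boxes on the opposite strand and CDC7 none of these letters. RefSeq windows were found for 49 of the 54 genes, 67 windows in all. Either shorter E2F motif stood in 25 of the 67 windows (37.3%), against 5.06% of all 35116 windows, and the CCAAT box in 36 (53.7%), against 34.6%. Either longer motif, TTTCGCGC or TTTGGCGC, each of which contains a shorter one, stood in 15 windows (22.4%), against 1.15% of all. Counted by gene, 5 of the 9 genes called higher held a shorter E2F motif (55.6%), as did 18 of the 38 uncalled genes (47.4%). It stood in 0 of the 2 called lower, and in 6.1% of all 27305 genes with a window. The other genes called higher, PRIM1, RFC2, RFC4 and MCM10, held none and are not printed above. Other forms of the E2F letters were not searched, so a window without a match, such as that of CDC7 or TK1, may hold one. A match describes letters and not a binding site, and these counts were not tested.

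The 6 arrays had medians of 5.59 to 5.62 on the log2 scale, and correlated at r = 0.998 within a group and 0.996 to 0.997 between groups, across probe sets, which are not independent replicates. The GAPDH control's 3′ signal less its 5′ signal, a sign of RNA integrity, was 0.35 to 0.40 in DMSO and 0.44 to 0.53 in CA, while that of the ACTB control overlapped, at 2.15 to 2.40 in DMSO and 2.34 to 2.46 in CA. Their part in the results was not tested. Of the 8 measured myeloid markers, LYZ (13.4 in DMSO), FLT3 (11.7) and MEIS1 (9.70) stood far above the array median. MPO (7.82), ITGAM (7.65) and CSF1R (6.71) were above it by less. SPI1 (5.51) lay just under it, and CD14 (4.36) was near the arrays' lower quartile of 4.11 to 4.14. Of these 8, MEIS1 rose and CSF1R and ITGAM fell. The mean of the 6 T and NK cell markers was 4.85 to 4.98 in DMSO and 5.06 to 5.10 in CA, with 1 of 6 called higher, GNLY, and the part of these shifts in the results was not tested. The B cell, erythroid and epithelial or stromal markers had no called gene among 3, 3 and 6 measured.

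After CA, 9 genes of the licensing, helicase, polymerase, clamp loader and chromatin groups were higher, and 2 genes, of origin firing and of nucleotide salvage, were lower. At an adjusted p under 0.05 (limma, Benjamini-Hochberg over 19775 genes), 9 of the 54 genes rose (16.7%), where 6.64% of all genes tested rose, and 2 fell (3.70%), where 4.49% of all genes fell. The genes that rose were TIPIN, PRIM1, POLE2, RFC2, RFC4, MCM10, UHRF1, CDC6 and MCM2, and those that fell were CDC7 and TK1. Calls are from this fit unless another is named. Every change was small. The called differences ran from 1.11-fold to 1.21-fold, and the 95% confidence interval of 47 of the 54 genes lay wholly within a 1.2-fold change in either direction. The median difference, CA minus DMSO, was 0.06 on the log2 scale over the 54 genes, against -0.00 over all genes tested. Of the 54 differences 41 were positive (75.9%), against 48.8% of all genes. In RNA from a whole well, a different share of cells in S phase and a different amount of each RNA per cell cannot be told apart.

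**Figure D1:**
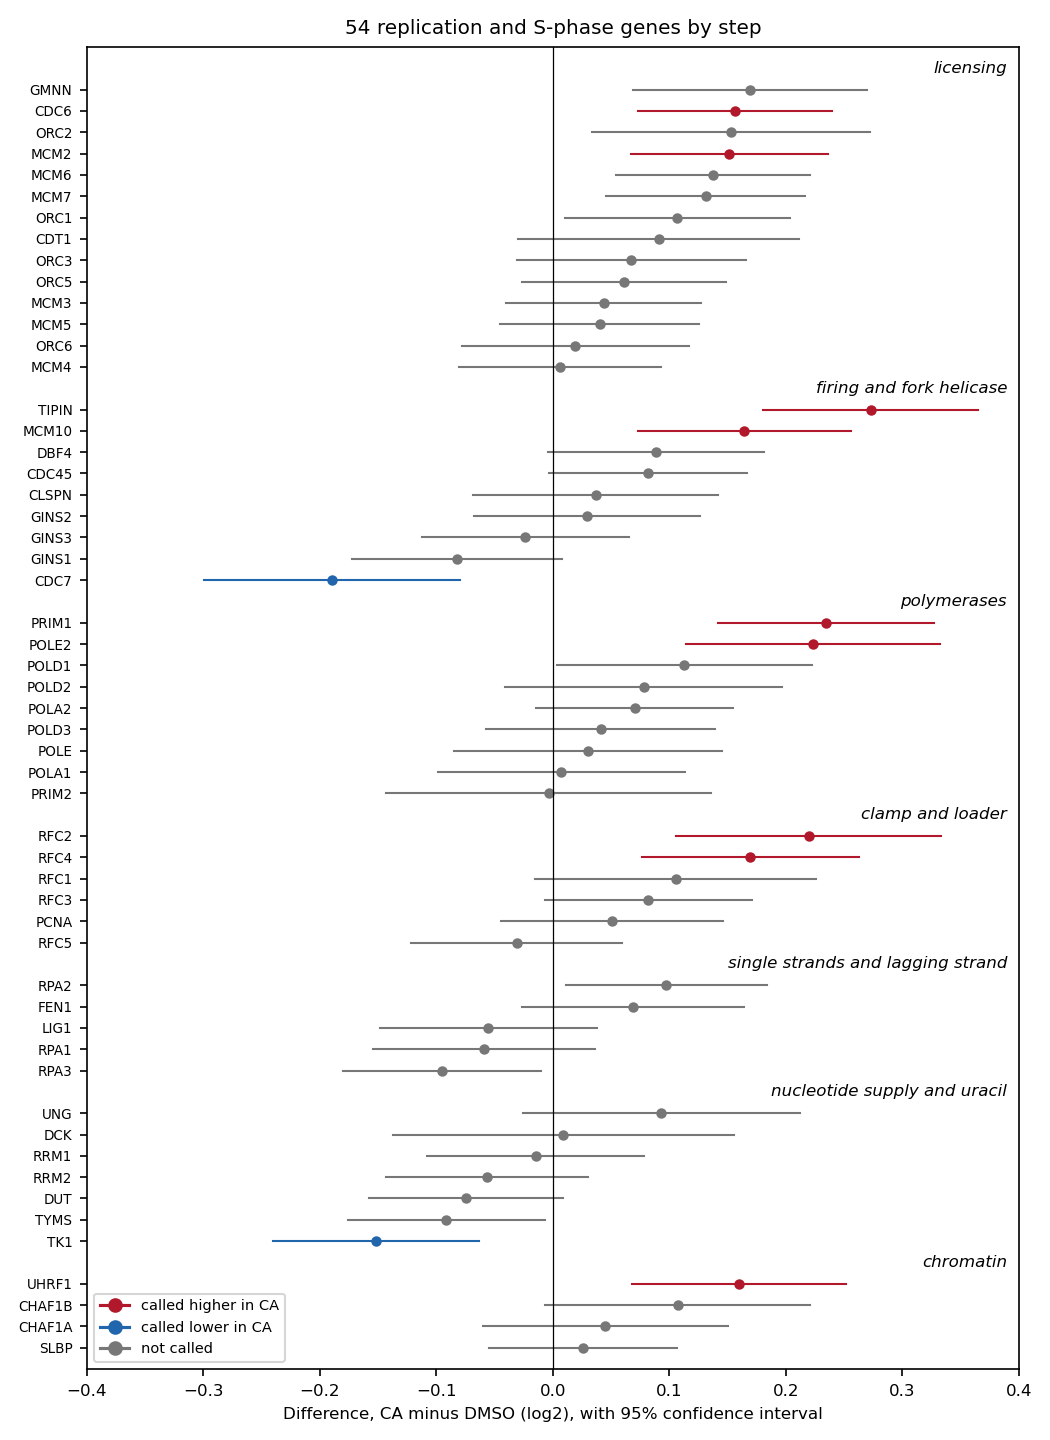
Difference between CA and DMSO (log2, horizontal axis) for each of the 54 genes, grouped by step, with its 95% confidence interval from limma on 3 arrays a group. All 14 licensing genes lie to the right of 0, whereas 5 of the 7 genes of nucleotide supply and uracil removal lie to the left.

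These counts depend on the number of arrays and on how strongly genes are expressed. All 54 genes had a mean log2 above 6, and among the 10997 genes at that level or above 14 members rose (25.9%; 17.4% of all such genes) and 4 fell (7.41%; 14.0% of all). When a single array was omitted, in turn each of the 3 DMSO and the 3 CA arrays, 1 or 2 members rose and 0 fell, or 1.85% to 3.70% of members against 3.65% to 4.29% of all genes rising, and with 435 to 495 of the 19775 genes falling. In those fits TIPIN kept its call in 6 of 6 and PRIM1 in 5 of 6 (adjusted p = 0.0538 without DMSO replicate 3), and the other 9 called members kept it in none.

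The CA arrays lay wholly above the DMSO arrays in 25 of the 54 genes (46.3%), where this held for 16.6% of all genes and for 25.1% of genes whose mean log2 reached 6. They lay wholly below in 7 genes (13.0%), against 15.2% of all genes and 22.6% of those whose mean log2 reached 6. The share of members with CA on top was thus above both backgrounds, and the share with CA below was under them. Among 62 other replication genes, described below, these shares were 30.6% and 21.0%. No set matched to the members' level was compared. The members were chosen with earlier results of these data known, and the shares were not tested.

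In the licensing group, the 14 differences on the chosen probe sets were all positive, with a median of 0.10, and 2 genes rose. CDC6, the ATPase that brings the MCM ring to origins, was at 9.53, 9.52 and 9.52 in DMSO and at 9.66, 9.68 and 9.70 in CA. The groups were clearly apart, and the spread within each was a few hundredths of a log2 unit. CDC6 rose 1.11-fold (log2 difference 0.16, SE 0.03, limma adjusted p = 0.0359). Its other probe set gave 0.15 (adjusted p = 0.218 over all probe sets), and the mean of both was uncalled (adjusted p = 0.0739).

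MCM2, a subunit of the ring, was at 10.82, 10.82 and 10.79 in DMSO and at 10.95, 10.95 and 10.99 in CA. All CA values were higher, and MCM2 rose 1.11-fold (0.15, SE 0.04, limma adjusted p = 0.0414). The other 5 ring subunits were not called: MCM6 (0.14, adjusted p = 0.0544) and MCM7 (0.13, 0.0673) came nearest, and MCM3 (0.04), MCM5 (0.04) and MCM4 (0.01) stood near 0. MCM6 and MCM7 were called higher where only genes whose mean log2 reached 6 were tested (adjusted p = 0.0104 and 0.0139). The CA arrays lay wholly above DMSO in MCM2, MCM3, MCM6 and MCM7. The other probe set of MCM7 gave 0.06. A far dimmer one of MCM6 gave -0.11, with CA wholly below DMSO, and the other ones of MCM4 ran from -0.12 to 0.03. The 6 subunits join in 1 ring, and their differences on the chosen probe sets spread from 0.01 to 0.15. This is a description and was not tested between subunits.

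GMNN, geminin, which holds CDT1 back from loading the ring again, had the largest difference of the licensing group. It was at 11.99, 11.98 and 11.91 in DMSO and at 12.09, 12.14 and 12.16 in CA, so that the groups did not overlap. Its difference of 0.17 (SE 0.04) had a limma adjusted p = 0.05003, just over the threshold. GMNN was called higher in 6 alternative fits, at adjusted p from 0.000478 with an intensity trend and robust moderation to 0.0459 with arrays centred on the reference genes, and in none of the 6 fits with an array left out. CDT1 itself was at 0.09 (95% confidence interval -0.03 to 0.21), and its dimmer probe set gave 0.25, uncalled. None of the 5 subunits of the origin recognition complex was called, with 0.15 for ORC2, 0.11 for ORC1, 0.07 for ORC3, 0.06 for ORC5 and 0.02 for ORC6. The other probe set of ORC2, nearly as bright (8.96 against 9.11), gave 0.01, and the dimmer ones of ORC5 gave 0.11 and 0.24.

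The group of origin firing and the fork helicase changed in both directions. TIPIN, which with its partner TIMELESS steadies the fork and serves the replication checkpoint, was at 9.68, 9.68 and 9.65 in DMSO and at 9.91, 9.99 and 9.94 in CA. The gap between the groups was several times the spread within them, and this was the largest difference among the 54 genes. TIPIN rose 1.21-fold (0.27, SE 0.04, limma adjusted p = 0.00720) and was the only member called at an adjusted p under 0.01 or in the fit with a replicate block. TIMELESS, from the list of other replication genes, was at -0.04 (adjusted p = 0.608).

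MCM10, which helps to activate the helicase, was at 9.99, 9.95 and 10.01 in DMSO and at 10.12, 10.15 and 10.17 in CA. It rose 1.12-fold (0.16, SE 0.04, limma adjusted p = 0.0413), and its other 2 probe sets gave the same difference of 0.16, while the mean of all 3 was uncalled (adjusted p = 0.0581). CDC7, the kinase that triggers firing, went the other way, at 9.47, 9.42 and 9.35 in DMSO and at 9.25, 9.24 and 9.18 in CA. All 3 CA values were lower, and CDC7 fell 1.14-fold (-0.19, SE 0.05, limma adjusted p = 0.0474). The call of CDC7 was also lost with arrays centred on their medians and with array weights. DBF4, its activating subunit, was at 0.09 (95% confidence interval -0.00 to 0.18, adjusted p = 0.217), so that kinase and activator differed in sign.

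The remaining genes of the group were not called. CDC45 was at 0.08, the checkpoint mediator CLSPN at 0.04, and the GINS subunits at 0.03 for GINS2, -0.02 for GINS3 and -0.08 for GINS1. In GINS1 the CA arrays nonetheless lay wholly below DMSO, at 10.85 to 10.92 against 10.97 to 10.99.

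**Figure D2:**
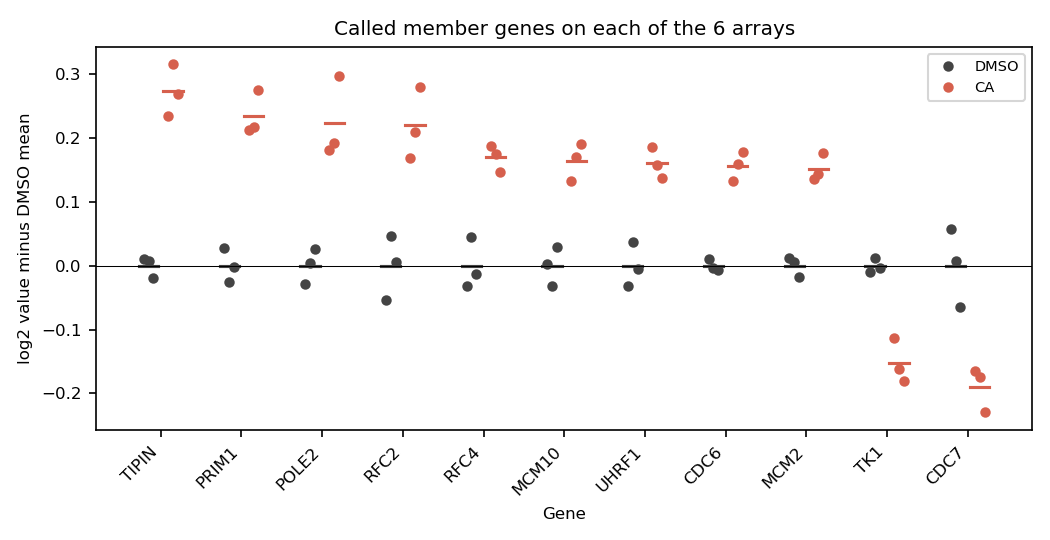
Values of the 11 called genes on each of the 6 arrays (log2 value minus the mean of the DMSO arrays, vertical axis), with a line at each group mean. In each gene the 3 CA points stand apart from the 3 DMSO points, TIPIN highest and CDC7 lowest.

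Among the polymerases, a primase and an epsilon subunit rose while their partners were not called. PRIM1, the catalytic subunit of primase, was at 10.98, 10.93 and 10.95 in DMSO and at 11.17, 11.17 and 11.23 in CA. It rose 1.18-fold (0.23, SE 0.04, limma adjusted p = 0.0127). PRIM2, the large primase subunit, was at -0.00 (95% confidence interval -0.14 to 0.14), on the 1 probe set of its own. POLE2, the accessory subunit of polymerase epsilon, was at 10.18, 10.22 and 10.24 in DMSO and at 10.39, 10.40 and 10.51 in CA. It rose 1.17-fold (0.22, SE 0.05, limma adjusted p = 0.0264), while POLE, the catalytic subunit, was at 0.03 (-0.09 to 0.15).

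The differences of the other 5 polymerase genes ran from 0.01 for POLA1, the catalytic subunit of polymerase alpha, to 0.11 for POLD1, that of polymerase delta. POLD2 was at 0.08, POLA2 at 0.07 and POLD3 at 0.04. In POLD1 and POLA2 the CA arrays lay wholly above DMSO, but neither passed the test (adjusted p of 0.187 and 0.278).

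The clamp and its loader had a median difference of 0.09. RFC2, a small subunit of the loader, was at 9.62, 9.72 and 9.68 in DMSO and at 9.85, 9.89 and 9.96 in CA. It rose 1.16-fold (0.22, SE 0.05, limma adjusted p = 0.0326), and its other probe set gave 0.21. RFC4, another small subunit, was at 10.87, 10.95 and 10.89 in DMSO and at 11.09, 11.08 and 11.05 in CA. It rose 1.12-fold (0.17, SE 0.04, limma adjusted p = 0.0392), and its call was also lost with arrays centred on the reference genes. The large subunit RFC1 was at 0.11, RFC3 at 0.08 and RFC5 at -0.03, none of them called. The clamp PCNA was at 0.05 (95% confidence interval -0.04 to 0.15), with overlapping groups of 12.80 to 12.87 in DMSO and 12.85 to 12.91 in CA.

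No gene of single-strand binding or lagging-strand processing was called. RPA2, a subunit of the trimer that coats single strands, had the largest difference of these 5 genes. It was at 10.67, 10.65 and 10.67 in DMSO and at 10.75, 10.74 and 10.79 in CA. The groups did not overlap, yet the difference of 0.10 (SE 0.04) had a limma adjusted p = 0.152. RPA3 was at -0.10 and RPA1 at -0.06, so that the 3 subunits of 1 complex did not share a sign. The flap nuclease FEN1 was at 0.07 and the ligase LIG1 at -0.06.

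On the chosen probe sets, the genes of nucleotide supply stood lower where they stood apart at all. TK1, which salvages thymidine, was at 8.70, 8.72 and 8.70 in DMSO and at 8.59, 8.54 and 8.52 in CA. All 3 CA values were lower, and TK1 fell 1.11-fold (-0.15, SE 0.04, limma adjusted p = 0.0480), with -0.17 on its other probe set. Centring the arrays on their medians, or on reference genes, also ended its call.

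TYMS, which makes thymidylate, was at -0.09, the dUTPase DUT at -0.07 and RRM2, the regulatory subunit of ribonucleotide reductase, at -0.06, none of them called. In each of the 3 the CA arrays lay wholly below DMSO on the chosen probe set. The other probe set of RRM2, nearly as bright (11.86 against 12.15), gave 0.02 with overlapping groups. The other probe sets of TYMS and DUT had negative differences. The catalytic subunit RRM1 was at -0.01 and the salvage kinase DCK at 0.01, both with overlapping groups. UNG, which removes uracil from DNA, was at 0.09 and also overlapped. On average over the 7 genes the CA arrays lay at 11.62 to 11.64 and the DMSO arrays at 11.66 to 11.69, without overlap. The licensing genes, averaged likewise, lay at 10.50 to 10.54 in CA and 10.41 to 10.43 in DMSO.

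**Figure D3:**
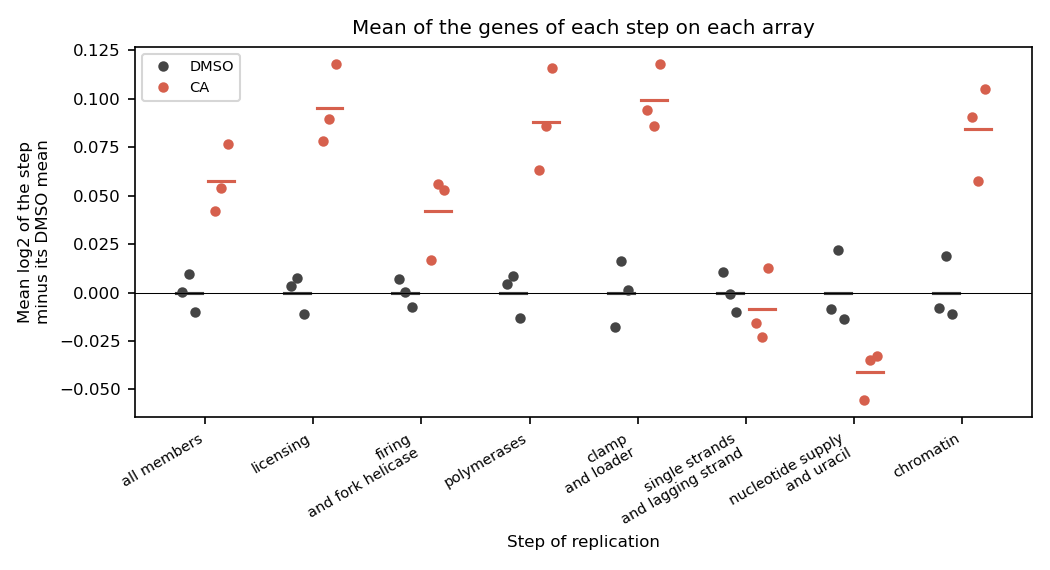
Mean log2 value of the genes of each step on each array, minus the mean of the DMSO arrays (vertical axis), with a line at each group mean. The CA arrays stand above DMSO in licensing, firing and fork helicase, polymerases, clamp and loader, and chromatin, and below it in nucleotide supply, while they overlap for single strands and lagging strand.

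Of the 4 chromatin genes 1 rose. UHRF1, which brings DNA methylation to newly copied strands, was at 12.32, 12.38 and 12.34 in DMSO and at 12.53, 12.50 and 12.48 in CA. It rose 1.12-fold (0.16, SE 0.04, limma adjusted p = 0.0451), and its call was also lost with arrays centred on the reference genes. The histone chaperone subunits CHAF1B and CHAF1A were at 0.11 and 0.05, and SLBP, which binds the 3′ end of replication-dependent histone messages, was at 0.03, all uncalled.

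Many genes were measured more than once. The 54 genes had 97 probe sets of their own, 28 genes with 1 and 26 with several. Of the 43 probe sets that were not chosen, 32 had the sign of the chosen one. When limma was run on all 41091 such probe sets, 3 of the chosen probe sets were called higher, those of TIPIN, PRIM1 and POLE2, and none lower, or 5.56% and 0% of the 54, against 3.83% and 2.72% of all probe sets tested. Among the others 1 was called higher, a dimmer probe set of RFC3 (0.45, adjusted p = 0.00211), and 2 lower, of CLSPN (-0.26, 0.0483) and DUT (-0.25, 0.0467). The chosen probe sets of RFC3, CLSPN and DUT gave 0.08, 0.04 and -0.07. Of the 54 chosen probe sets, 24 end in _s_at or _x_at, which can match several transcripts or genes. Without such probe sets 3 of the 41 members still measured rose, TIPIN, PRIM1 and POLE2, and 1 fell, DUT. These are 7.32% and 2.44% of those members, against 4.50% and 3.31% of the 17098 genes tested in that fit.

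**Figure D4:**
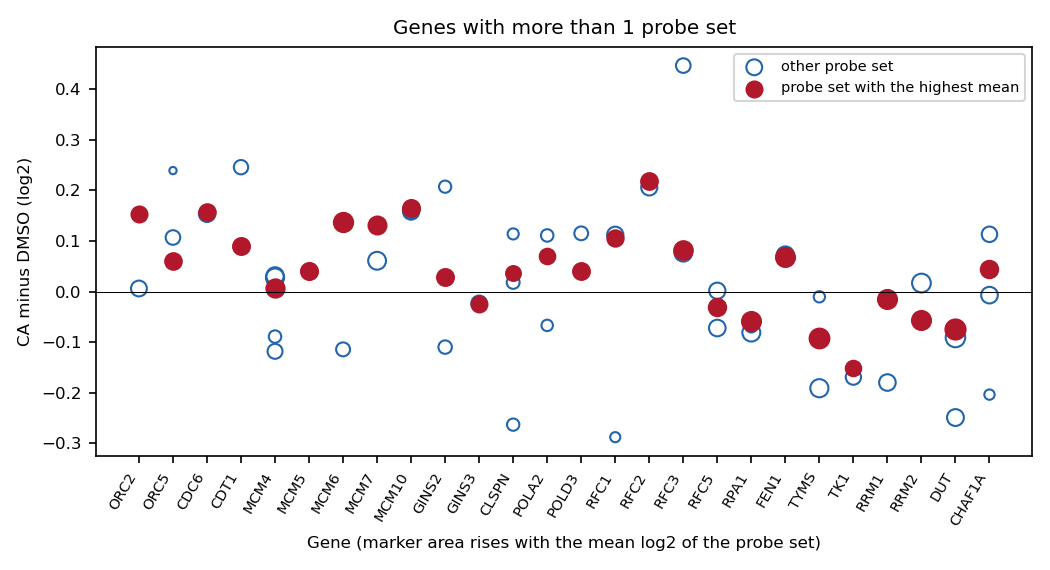
Difference between CA and DMSO (log2, vertical axis) for every probe set of the 26 genes with more than 1, with the chosen probe set filled and marker area rising with the mean level. The probe sets of RFC2, MCM10, CDC6 and TK1 lie close together, and those of RFC3, CLSPN and DUT lie apart.

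Other genes of replication, S-phase control and the replication checkpoint were counted in the same fit. Of 62 measured, 2 rose (3.23%) and 3 fell (4.84%), against 6.64% and 4.49% of all genes, and their median difference was 0.02. CCNE1, cyclin E1, which with CDK2 drives entry into S phase, rose 1.21-fold (0.27, SE 0.04, limma adjusted p = 0.00820), from 8.92, 8.92 and 8.83 to 9.16, 9.16 and 9.18. CCNE2, cyclin E2, fell 1.19-fold (-0.25, SE 0.05, limma adjusted p = 0.0188), from 10.65, 10.76 and 10.64 to 10.43, 10.42 and 10.46. The 2 E-type cyclins thus changed in opposite directions, and in both genes the groups did not overlap.

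FBXO5, an inhibitor of the anaphase-promoting complex that lets geminin and cyclins build up, fell 1.16-fold (-0.21). POLE4, a histone-fold subunit of polymerase epsilon, fell 1.15-fold (-0.20), and the histone chaperone NASP rose 1.10-fold (0.14). The last 3 were at limma adjusted p of 0.0368, 0.0160 and 0.0487. With each array left out in turn, CCNE1 kept its call in 6 of 6 fits, CCNE2 in 3, POLE4 in 1 and FBXO5 and NASP in 0, and with a replicate block CCNE1 alone of the 5 kept it (adjusted p = 0.0458). The mean of all probe sets put NASP at -0.00 and CCNE1 at 0.10, both uncalled, and POLE4 was at 0.20, uncalled, when its most variable probe set was taken. The S-phase kinase CDK2 was at 0.03, and the factors E2F1 and E2F2 were at -0.03 and 0.00, with overlapping groups.

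**Figure D5:**
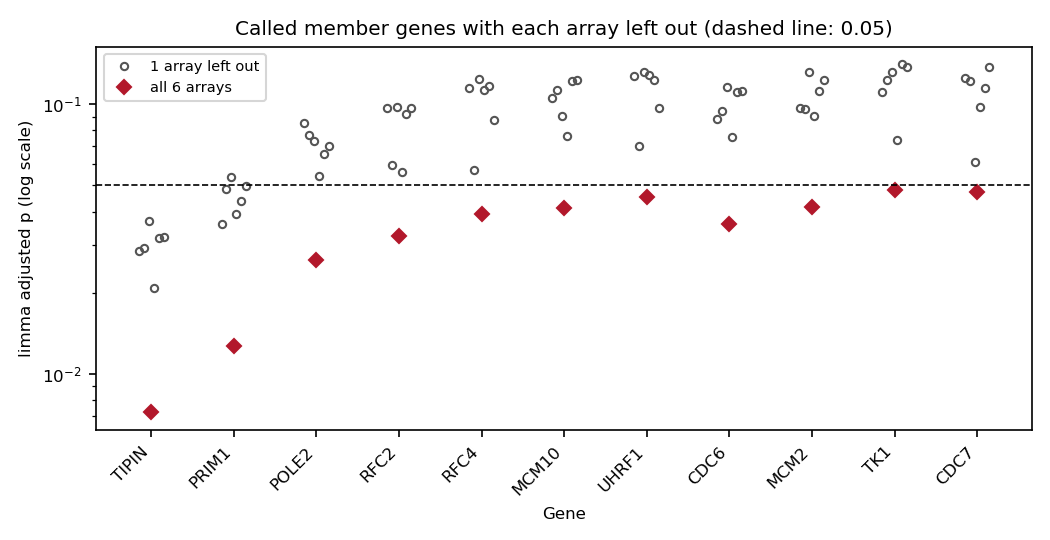
Adjusted p (limma, vertical axis, log scale) of the 11 called genes on all 6 arrays (filled diamonds) and with each array left out in turn (open circles), with a dashed line at 0.05. TIPIN stays under the line with every array left out and PRIM1 with 5 of 6, and the other 9 genes lie above it in each of these fits.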

How the data were processed

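The authors deposited a log2 intensity for each probe set of Affymetrix U133 Plus arrays, which they made with RMA in affy, per the submitters' processing notes. RMA corrects background, quantile-normalizes and summarises probes, and it compresses fold changes; its version, and which arrays it normalized as a set, are not given in the sources here. Arrays have no sequencing depth, and their number limits the precision.

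Of 54675 probe sets, 41091 had 1 gene symbol, 1801 several and the rest were controls or unnamed here. Symbols were updated through Entrez numbers to GRCh38.p14, which matched 41037. Those with several symbols were left out, among them 4 that list PRIM2. The comparison of CA with DMSO used limma 3.58.1 (R 4.3.3), with lmFit and eBayes, 2-sided, without covariates or a filter on level, over 19775 genes. It was first run on simulated data, with the spread of the real genes at all levels. There it recovered 68% of changes of 0.5 on the log2 scale and 5% of changes of 0.2, with 6.41% of calls false. A gene that was not called may therefore still have changed by about 0.2. These shares cover genes at all levels, so they do not give the rate for the 54 members, whose mean log2 was above 6. The median SE of the members was 0.04, and MCM2 was called at a difference of 0.15. For the 43 uncalled members, the confidence intervals reached from -0.18 to 0.27. A gene was called at a Benjamini-Hochberg adjusted p under 0.05.

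The members and the lists were chosen with earlier results of these data known. Named with values on every array were the called members and the member of each step with the largest difference. Of 64 other replication genes listed, the called ones are named, and CCNE1 and CCNE2 are given on every array. Alternatives were other probe set rules, level filters, centring, normalization, moderation, thresholds, omission of each array and a replicate block. Centring on reference genes used ACTB, GAPDH, PPIA, PPIB, YWHAZ, SDHA, TBP, HPRT1, GUSB, PGK1 and POLR2A. Of these, HPRT1 was itself called lower (-0.21) and POLR2A higher (0.30), and the others were not called.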

Additional observations from a re-analysis of the deposited data

How the results depend on the processing

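The median difference of the members stayed positive under every alternative run, at 0.05 to 0.07 on the log2 scale where all 54 were measured and 0.04 over the 41 left without _x_at and _s_at probe sets. Positive differences numbered 36 to 43 of the 54, fewest on the probe set of largest variance, and 26 of the 41. The counts of calls moved more. Members higher and lower, 9 and 2 on all 6 arrays, became 1 and 0 at an adjusted p under 0.01. These were 1.85% and 0% of members, against 2.90% and 1.58% of all genes. At 1.2-fold or more they were 1 and 0 (1.85% and 0%, against 4.02% and 2.30%). The share rising was thus under that of all genes in both. On the probe set of largest variance they were 3 and 0 (5.56% and 0%, against 4.25% and 2.88%). Without _x_at and _s_at probe sets they were 3 and 1 (7.32% and 2.44%, against 4.50% and 3.31%). Among genes whose mean log2 reached 6 they were 14 and 4 (25.9% and 7.41%, against 17.4% and 14.0%). An intensity trend and robust moderation gave 16 and 5 (29.6% and 9.26%, against 10.7% and 8.57%). Members lower were 0 with arrays centred on medians, where 3.96% of all genes fell. They were 1 each with centring on reference genes and with array weights (1.85%, against 4.18% and 4.60% of all genes). With any 1 array left out members higher were 1 to 2 and members lower 0.

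Genes higher and lower over the whole table (1314 and 888) were 573 and 312 at 0.01, 795 and 454 at 1.2-fold, 841 and 570 on largest variance, 770 and 566 without _x_at and _s_at, and 2119 and 1695 with trend and robust moderation. Those lower were 1432 at 0.1 and 1539 where the mean log2 reached 6. With any 1 array left out they were 721 to 848 higher and 435 to 495 lower. Of the named genes, NASP was reversed on the mean of all probe sets (-0.00020) and POLE4 on that of largest variance (0.20). The causes were not tested, except that fewer arrays or genes were tested where the alternative leaves them out.

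The replicate block gave 1 member higher and 0 lower (1.85% and 0%), and 716 genes higher and 402 lower in all (3.62% and 2.03%). The block leaves less data to estimate the spread. The labels give the samples shared numbers and do not say whether a number marks a batch. Deviations of same-numbered arrays from their group means correlated at 0.02, 0.03 and 0.02. Differently numbered pairs ran from -0.08 to 0.06, and DMSO replicate 1 correlated best with CA replicate 2 (0.04). With 3 arrays a group these correlations cannot decide whether a number marks a batch.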

Other observations

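The probe sets that list PRIM2 together with the pseudogene PRIM2BP were not used for PRIM2. The 2 brighter ones were lower in CA, at 8.65 in DMSO and 8.48 in CA (difference -0.17) and at 7.73 and 7.54 (-0.19), against -0.00 on the probe set of PRIM2 alone. They were not tested.

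The probe set of RFC3 that was called higher was at 7.67 in DMSO and 8.11 in CA, against 11.69 and 11.77 on the chosen one.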
